A study of Homo sapiens and Mus musculus with 18 samples.

Results

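The 40 genes described here serve the making of ribosomes. They encode nucleolar chaperones, subunits and regulators of RNA polymerase I, proteins of ribosomal RNA modification, and assembly factors of the small and large subunits. They were taken by symbol, ignoring case, from a table of 15069 genes for the human Burkitt lymphoma line BL41 and a table of 12264 genes for the mouse line J3D. All 40 stood once in each table. The filter on low values removed 0 rows of either table, so it does not show that these genes were well expressed. RNA was sequenced from 18 libraries, with 3 per group and line. Sham cells were left untreated at room temperature outside the incubator while the others were exposed. The X-ray group received 5 Gy from a 6 MV linear accelerator. The proton group received 5 Gy in the centre of a spread-out Bragg peak, the stretch of depth over which a scanned proton beam gives an even dose. Every group had been resuspended 6 h before exposure and was harvested at 12 h. Each library carries a number from 1 to 3 that recurs in all groups, and the sources used here do not say what the number marks. Nor do they say whether the libraries of a group came from separate cultures, and p-values may therefore rest on technical spread alone.

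Ribosome synthesis starts in the nucleolus, where RNA polymerase I transcribes the ribosomal DNA into a long precursor. Small nucleolar ribonucleoproteins (snoRNPs) modify that precursor, the small-subunit processome folds and cleaves it, and separate sets of assembly factors carry both subunits to export. The transcription factor MYC, deregulated by translocation in Burkitt lymphoma, is known to activate many of these genes, and genotoxic stress is known to disturb the nucleolus. The deposited Gene Ontology labels were not used to choose the genes. They place 32 of the 40 in the nucleolus in BL41 (80%, against 3.64% of all rows) and 34 of the 40 in J3D (85%, against 4.16%). Labels of ribosome biogenesis or ribosomal RNA processing were fewer. They covered 19 of the 40 in BL41 (47.5%, against 0.896% of all rows) and 14 in J3D (35%, against 0.954%).

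MYC binds DNA with its partner MAX at the E-box CACGTG, which reads the same on both strands. The 300-base RefSeq promoter windows of the human genes (GRCh38.p14, 250 bases before to 50 after the start) were searched for it, and 34 of the 40 genes had a window. The E-box stood in 11 of the 34 (32.4%), against 7.26% of all 35093 windows in the same set and 8.34% of its 22180 windows of coding genes. Each of the 34 genes was read in its first listed window, while these shares count windows and not genes. In 10 of the 11 genes the E-box began between 10 bases before and 35 bases after the start. In EBNA1BP2 it began 237 bases before the start. The sites of 6 genes are printed from 5′ to 3′ on the gene's strand with the E-box in capitals. They were chosen by their BL41 values: UTP20 was highest and FBL lowest between protons and X-rays, LTV1, EBNA1BP2 and PNO1 had some of the smallest p there, and MYBBP1A was the second highest over sham after protons. A match of these letters is a description and not evidence of binding.
LTV1, small-subunit maturation, chr6:143843354-143843383, plus strand: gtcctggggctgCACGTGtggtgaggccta
PNO1, small-subunit maturation, chr2:68157885-68157914, plus strand: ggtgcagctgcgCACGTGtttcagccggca
UTP20, small-subunit processome, chr12:101280083-101280112, plus strand: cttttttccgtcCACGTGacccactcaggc
EBNA1BP2, large-subunit assembly, chr1:43172790-43172819, minus strand: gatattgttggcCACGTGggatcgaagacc
MYBBP1A, regulator of RNA polymerase I transcription, chr17:4555340-4555369, minus strand: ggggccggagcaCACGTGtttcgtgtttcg
FBL, ribosomal RNA methylation, chr19:39846356-39846385, minus strand: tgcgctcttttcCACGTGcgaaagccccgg

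All values are logarithms, read as log2, that the authors had centred gene by gene: from each value the mean of the 4 libraries of its number was taken off, and 1 of those 4 is not analysed here. A value therefore says how a library stands against the others of its number, and levels cannot be compared between genes. Sequencing depth is unknown. In bulk RNA of this kind, fewer cells with a transcript and less transcript per cell cannot be told apart. The tables list genes without saying how rows were admitted. That of BL41 holds 12 of 12 B-lineage markers and 3 of 10 erythroid and megakaryocyte markers. That of J3D, also labelled Burkitt lymphoma, holds 1 of 12 B-lineage markers (CD22) and 8 of 11 erythroid and megakaryocyte markers, among them GATA1, KLF1, ALAS2 and PF4, which goes against that label as far as the table shows it. The median of those J3D markers lay between −0.05 and 0.04 in sham, −0.08 and 0.01 after X-rays and −0.09 and 0.06 after protons, and its part in the results was not tested. Libraries that stand apart were J3D number 1, with interquartile ranges over all rows of 0.342, 0.395 and 0.371 (0.139 to 0.238 in the other 6), and BL41 sham 2, with the lowest mean over all rows (−0.133).

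The ribosome biogenesis genes had their highest values in the proton libraries of number 1 and their lowest in the X-ray libraries of number 1, in both lines. In BL41, the members' median minus that of all rows was −0.14, −0.04 and 0.09 in sham libraries 1 to 3, −0.34, −0.02 and −0.18 after X-rays, and 0.19, 0.04 and 0.00 after protons. In J3D the same quantity was −0.31, −0.06 and 0.01 in sham, −0.38, 0.08 and −0.16 after X-rays, and 0.39, 0.03 and 0.04 after protons. Numbers 1 and 3 thus had X-ray libraries below the proton libraries in both lines, while in number 2 the irradiated libraries lay close together.

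**Figure D1:**
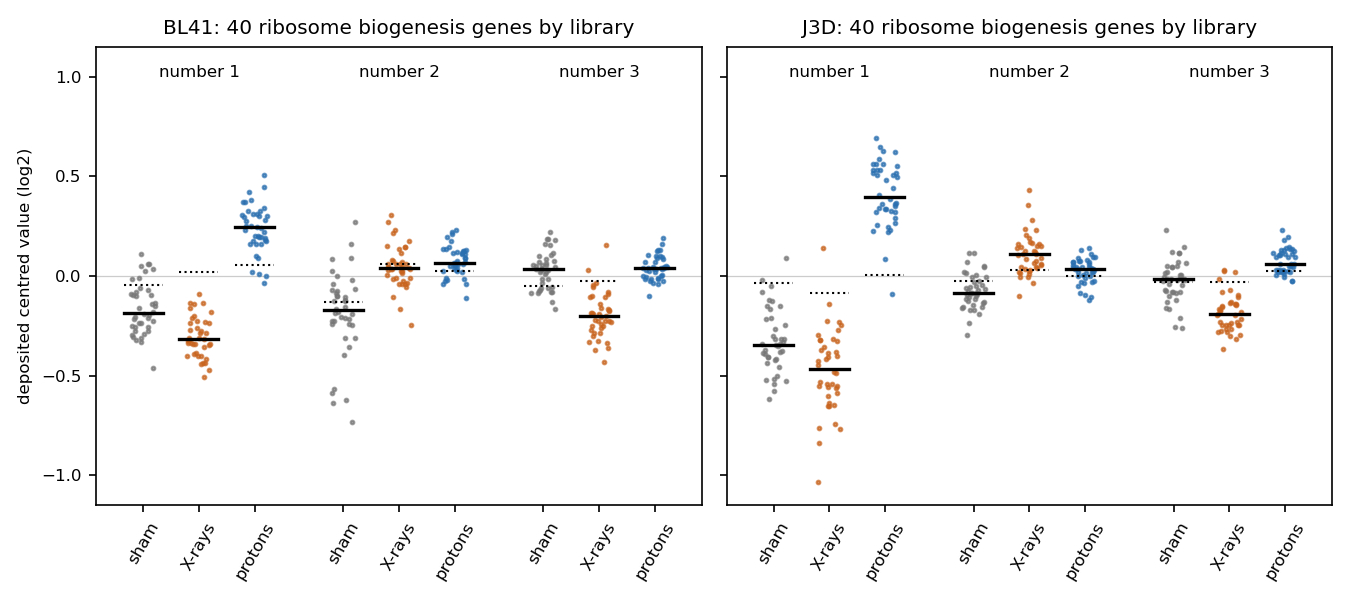
Deposited centred values (log2, vertical axis) of the 40 ribosome biogenesis genes in each library, 1 point per gene, grouped by number, for BL41 (left) and J3D (right). Solid bars are medians of the 40 genes and dotted bars medians of all rows; the proton library of number 1 is highest and the X-ray library of number 1 lowest in both lines.

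Set against X-rays, protons gave values above 0 for all 40 genes in BL41 and all 40 in J3D, but no single gene passed the test. Of all rows, 8148 of 15069 were above 0 in BL41 and 7009 of 12264 in J3D. The median difference between protons and X-rays was 0.27 in BL41 (all rows: 0.02) and 0.35 in J3D (all rows: 0.04). FBL (0.04) and BOP1 (0.08) were lowest and UTP20 (0.51) highest in BL41; POLR1C (0.02) was lowest and UTP20 (0.55) highest in J3D. Taken number by number, 40, 25 and 37 of the 40 genes were above 0 in BL41 and 39, 13 and 38 in J3D. Above the median of all rows in the same number were 40, 31 and 35 in BL41 and 39, 18 and 37 in J3D. The differences were higher in all 3 numbers for 23 genes in BL41 (57.5%, against 16.9% of all rows) and 11 in J3D (27.5%, against 12.9%), and lower in all 3 for 0 in either line (13.2% and 10.6% of all rows). The proton and X-ray libraries did not overlap for 15 genes in BL41 (37.5%, against 11% of all rows) and 9 in J3D (22.5%, against 8.78%), all with protons higher. Without number 1 the median difference was 0.14 in BL41 and 0.09 in J3D. Leaving out only proton library 1 gave 0.18 and 0.12, only X-ray library 1 gave 0.18 and 0.19, and only X-ray library 2 gave 0.41 and 0.51.

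Against sham, the median of the genes lay higher after protons in both lines. After X-rays it was near 0 and its sign depended on single libraries. Read against all rows in BL41, the X-ray median was below 0 whichever library or number was left out. The proton median there, 0.09 against all rows, was −0.03 without proton library 1. After protons the median was 0.21 in BL41, where the median of all rows was itself 0.12, and 0.34 in J3D, where it was 0.05. By number the BL41 median was 0.42, 0.24 and 0.00, which is 0.32, 0.09 and −0.08 against all rows. In J3D it was 0.72, 0.12 and 0.11, which is 0.68, 0.10 and 0.06 against all rows. Values were above 0 for 36 of 40 genes in BL41 and 39 in J3D, against 10787 of all 15069 rows and 6989 of all 12264. They were higher in all 3 numbers for 19 genes in BL41 (47.5%, against 35.8% of all rows) and 29 in J3D (72.5%, against 30.1%), and lower in all 3 for NPM1 in BL41 (8.76% of all rows) and POLR1C in J3D (18.2%). Read against the median of all rows in each number, the BL41 count above was 10 (25%, against 19.5% of all rows) and the J3D count 24 (60%, against 24%). All proton libraries lay above all sham libraries for 15 genes in BL41 (37.5%, against 28% of all rows). The J3D count was 24 (60%, against 24.4%). They lay below sham for 1 gene in each line (6.52% and 14.2% of all rows). Single genes described below as separate from sham are to be read beside these shares. After X-rays the median was −0.06 in BL41 (all rows: 0.09) and −0.04 in J3D (all rows: 0.00). Against all rows these are −0.15 and −0.04. In BL41, 0 genes were higher in all 3 numbers (29.8% of all rows) and 4 were lower (7.61%): NPM1, DKC1, NOP58 and NHP2. In J3D these counts were 0 (11.7%) and 5 (12.9%), the latter being FBL, MYBBP1A, PES1, GAR1 and NIP7. The share of genes below the median of all rows in every number was 40% in BL41 (17.8% of all rows) and 15% in J3D (13.2%). All X-ray libraries lay below all sham libraries for 3 genes in BL41 (7.5%, against 4.61% of all rows) and 0 in J3D (5.18%). They lay above sham for 0 genes in either line (21.6% and 4.62% of all rows). The X-ray median was 0.04 in BL41 without X-ray library 1 and 0.03 without sham 3, which is −0.07 and −0.09 against all rows. In J3D it was 0.13 and 0.05 without the same libraries, which is 0.09 and 0.04 against all rows. The proton medians without number 1 were 0.11 in BL41, which is −0.01 against all rows, and 0.12 in J3D.

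The 3 comparisons of a line share their libraries and are not independent of each other. limma with the number as a block called 0 of 40 genes (0% of all rows) at an adjusted p under 0.05 in each of the 6 comparisons. At an unadjusted p under 0.05, 3 genes passed in BL41 after X-rays (16.1% of all rows), 5 after protons (18.8%) and 5 between the beams (5.24%). In J3D 0 (3.37%), 2 (9.25%) and 5 (4.96%) passed. The fit without the block called 5.35% of all rows in BL41 after X-rays and 0 of the 40 genes. It called 6.82% after protons and 1 of the 40, WDR12. In the other 4 comparisons it called 0 rows.

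**Figure D2:**
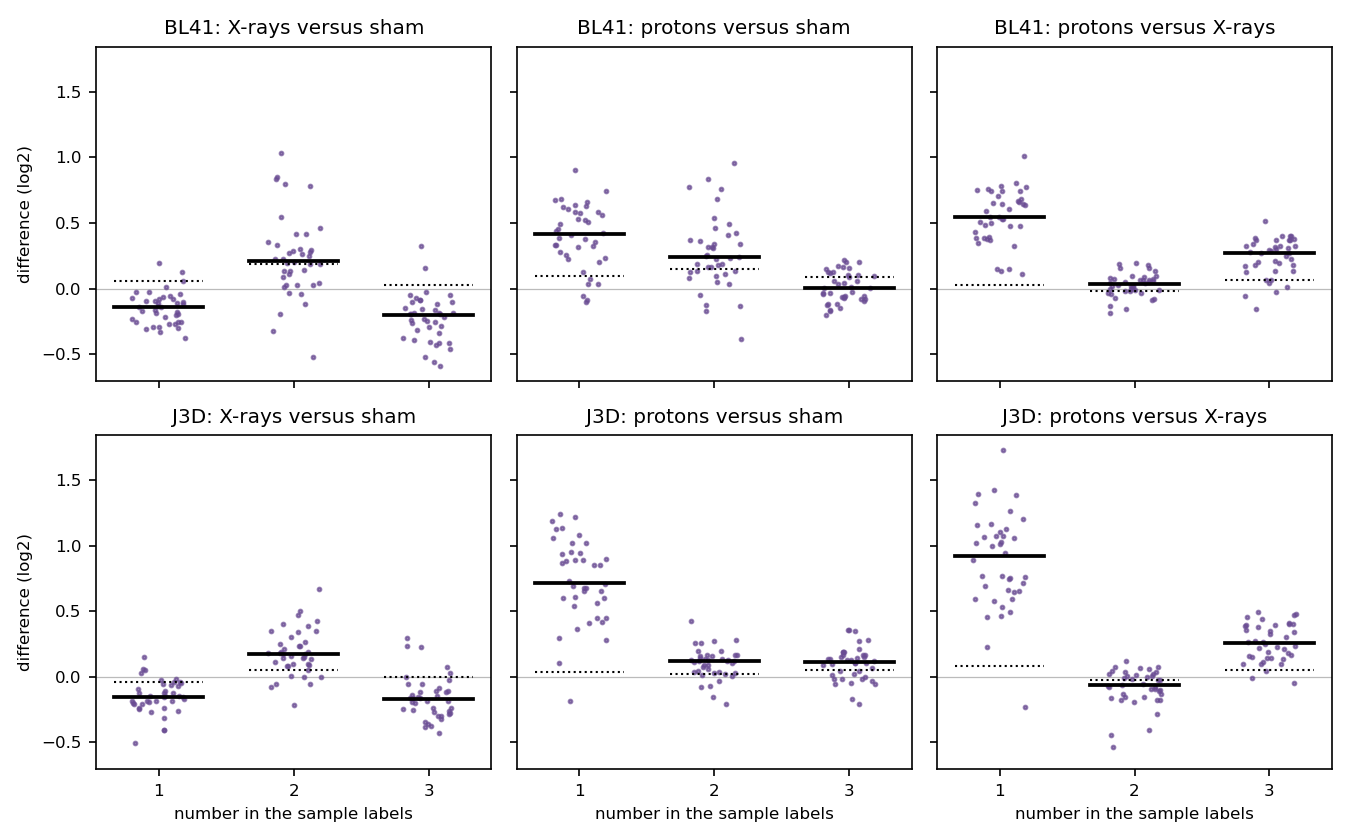
Difference of each of the 40 genes within each number (log2, vertical axis; number in the sample labels, horizontal axis) for the 3 comparisons in BL41 (top) and J3D (bottom). Solid bars are medians of the 40 genes and dotted bars medians of all rows; between protons and X-rays the median is 0.55, 0.03 and 0.27 in BL41 and 0.92, −0.07 and 0.26 in J3D.

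The nucleolar chaperones and RNA-binding proteins come first by role. NPM1, nucleophosmin, is an abundant nucleolar chaperone with many processed pseudogenes, which could share its reads. In BL41 its values were 0.05, 0.09 and 0.10 in sham, −0.18, −0.11 and −0.09 after X-rays, and −0.04, −0.04 and 0.05 after protons. The sham libraries lay above all irradiated ones, by 0.21 ± 0.08 (SE, n = 3 libraries per group) over X-rays, with a limma adjusted p of 0.258. In J3D NPM1 was at −0.12, −0.06 and 0.07 in sham, −0.25, 0.04 and −0.16 after X-rays and 0.25, 0.05 and 0.05 after protons. There sham overlapped both other groups, while protons lay above X-rays in every library, by 0.24 ± 0.12 (limma adjusted p = 0.6). Nucleolin, encoded by NCL, was at 0.06, −0.07 and 0.12 in BL41 sham, −0.23, −0.04 and −0.18 after X-rays and 0.09, 0.03 and 0.09 after protons. Its proton libraries all lay above its X-ray libraries, by 0.22 ± 0.10 (limma adjusted p = 0.769). These groups of NCL overlapped in J3D, with −0.55, 0.17 and −0.25 after X-rays and 0.52, −0.01 and 0.11 after protons. The helicase gene DDX21 and LYAR, a nucleolar factor of precursor processing, differed by 0.32 and 0.27 between protons and X-rays in BL41, and by 0.34 and 0.45 in J3D.

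RNA polymerase I was represented by 4 subunits and 3 regulators. In BL41, POLR1A, the largest subunit, was at −0.21, −0.73 and 0.11 in sham, −0.32, 0.30 and −0.30 after X-rays and 0.42, 0.22 and 0.07 after protons. Its groups overlapped, and the value of −0.73 in sham 2 was the lowest of all members in BL41. Without that library, the X-ray difference of POLR1A went from 0.17 ± 0.26 to −0.16. The second-largest subunit gene POLR1B differed by 0.35 ± 0.21 between the beams in BL41 and 0.51 ± 0.26 in J3D. In J3D it was at −0.50, −0.09 and −0.01 in sham, −0.77, 0.16 and −0.17 after X-rays and 0.62, −0.00 and 0.14 after protons. UBTF, which binds ribosomal DNA and keeps it open, was at 0.14 ± 0.12 between the beams in BL41 and 0.52 ± 0.30 in J3D. In J3D its values in number 1 spanned from −0.76 after X-rays to 0.56 after protons.

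TWISTNB, a subunit that meets the initiation factor RRN3, had the smallest p of the 40 genes in J3D after protons. It was at −0.32, −0.16 and −0.25 in sham, −0.36, 0.02 and −0.02 after X-rays and 0.36, 0.10 and 0.10 after protons. The proton libraries lay above all others, by 0.43 ± 0.17 over sham (limma adjusted p = 0.442), with 0.68, 0.26 and 0.35 in the 3 numbers. POLR1C, a subunit shared with RNA polymerase III, went against the other genes in J3D. Its sham values were 0.09, 0.12 and 0.11, its X-ray values 0.14, −0.10 and −0.15 and its proton values −0.09, −0.03 and 0.06, so that sham lay above protons in every library, by 0.13 ± 0.12. In BL41 the proton difference of POLR1C was positive, 0.23 ± 0.18 over sham. RRN3, whose reads could be shared with its pseudogenes, was at 0.25 ± 0.15 over sham after protons in BL41 and 0.45 ± 0.24 in J3D. MYBBP1A, a nucleolar regulator of transcription and processing, was at 0.55 ± 0.23 over sham in BL41, where its sham 2 value was −0.62, and 0.07 ± 0.15 in J3D.

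**Figure D3:**
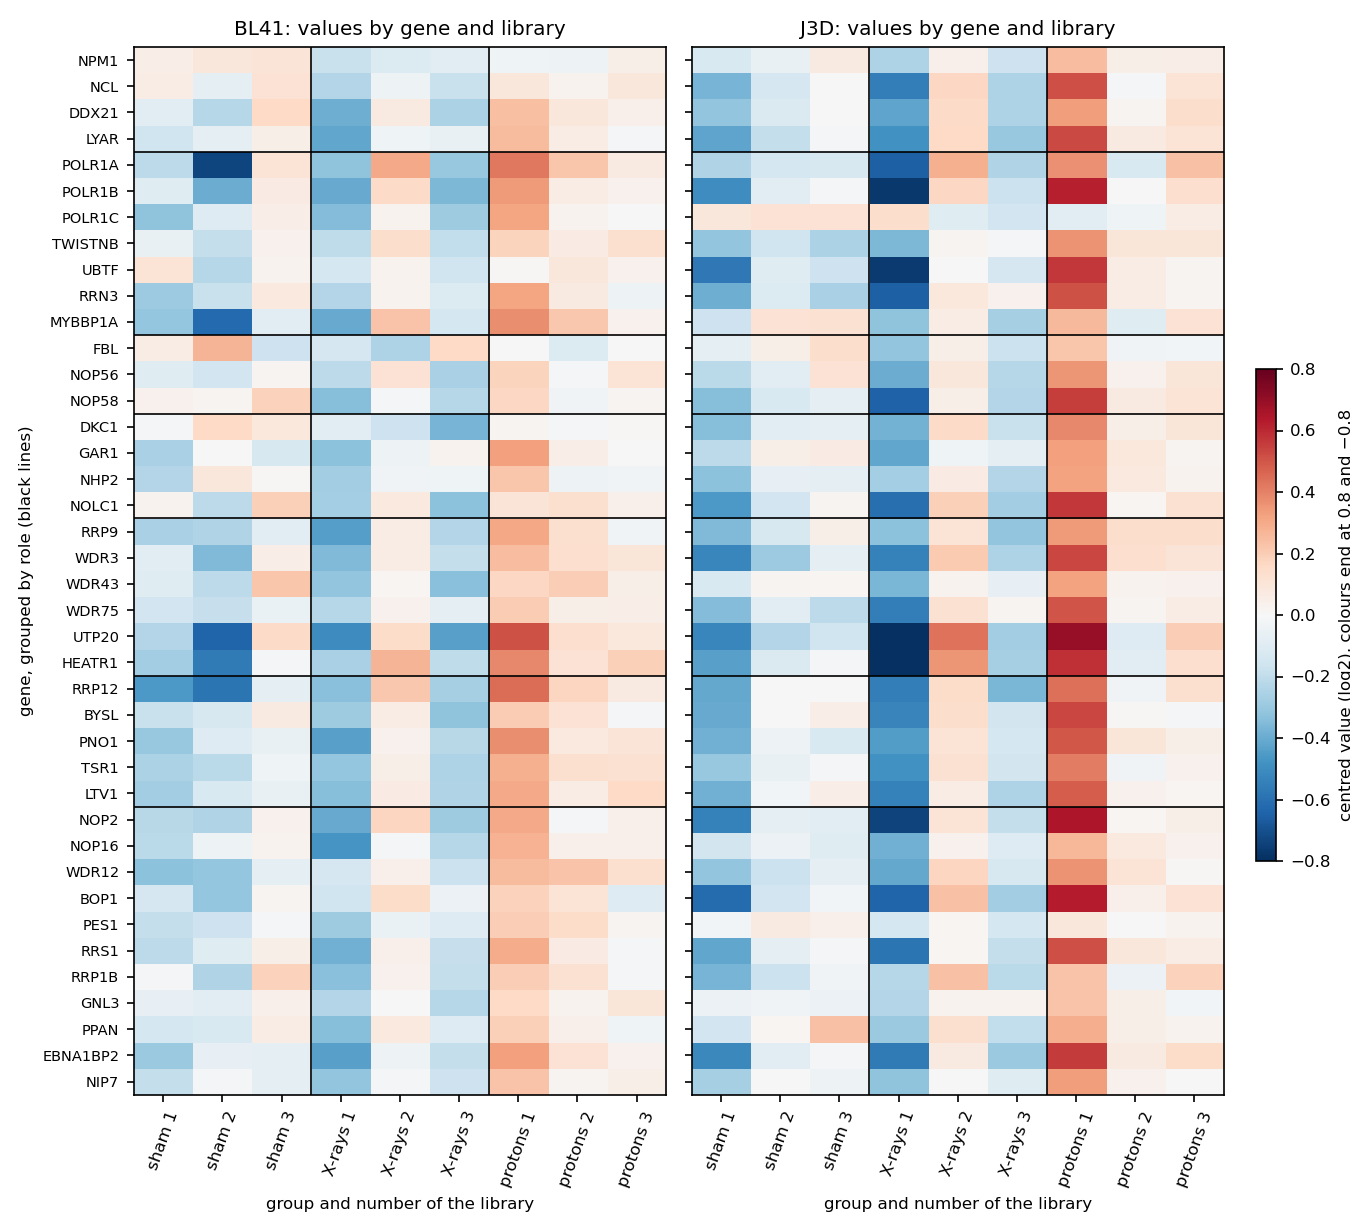
Centred values (log2, colour from −0.8 to 0.8) of the 40 genes (rows, grouped by role between black lines, in the order in which roles are described) in the 9 libraries of BL41 (left) and J3D (right). POLR1A reaches −0.73 in BL41 sham 2 and UTP20 −1.03 in J3D X-ray library 1, beyond the end of the colour scale, while POLR1C in J3D is above 0 in all 3 sham libraries.

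Box C/D snoRNPs methylate ribosomal RNA. FBL, fibrillarin, their methyltransferase, was at 0.06, 0.27 and −0.17 in BL41 sham, −0.13, −0.25 and 0.16 after X-rays and 0.00, −0.11 and 0.00 after protons, with all 3 groups overlapping. The FBL difference between the beams, 0.04 ± 0.15, was the smallest of the 40 in BL41. In J3D it was 0.20 ± 0.13. NOP58, a core protein of the same particles, was at 0.03, 0.02 and 0.18 in BL41 sham, −0.34, −0.01 and −0.23 after X-rays, and 0.16, −0.03 and 0.02 after protons. Sham lay above X-rays in every library, by 0.27 ± 0.12 (limma adjusted p = 0.305). In J3D the NOP58 difference between protons and X-rays was 0.52 ± 0.22 (limma adjusted p = 0.6), made of 1.20, 0.02 and 0.34 in the 3 numbers, and 0.18 without number 1. NOP56, its partner, was at 0.21 ± 0.13 between the beams in BL41 and 0.34 ± 0.16 in J3D.

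Box H/ACA particles turn uridines into pseudouridines. Their synthase dyskerin, encoded by DKC1, was at −0.02, 0.16 and 0.09 in BL41 sham, −0.09, −0.16 and −0.37 after X-rays and 0.02, −0.01 and 0.01 after protons. X-ray values were below both other groups in every library, by 0.29 ± 0.11 against sham (limma adjusted p = 0.27). In J3D DKC1 did not show that order, with an X-ray difference of 0.03 ± 0.17. GAR1 and NHP2, core proteins of the particle, were at 0.24 ± 0.15 and 0.16 ± 0.13 between the beams in BL41 and at 0.32 ± 0.14 and 0.29 ± 0.16 in J3D. NOLC1, a chaperone of these particles, was at 0.26 ± 0.15 and 0.46 ± 0.24.

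The small-subunit processome had the highest median between protons and X-rays of the 7 roles in J3D (0.42) and the second highest in BL41 (0.33). UTP20, a large scaffold protein, was at −0.24, −0.64 and 0.15 in BL41 sham, −0.51, 0.14 and −0.43 after X-rays and 0.51, 0.14 and 0.09 after protons. In J3D its values were −0.52, −0.24 and −0.16, then −1.03, 0.43 and −0.28, then 0.69, −0.11 and 0.20. Its standard errors were the largest of the 40 in both lines, and the X-ray library of number 2 lay above the proton library of the same number in J3D. Its J3D difference between the beams, 0.55 ± 0.36, was −0.03 without number 1. HEATR1, a second scaffold protein, went from 0.46 ± 0.29 to −0.02 in the same way. In BL41, HEATR1 was at −0.28, −0.57 and −0.01 in sham and 0.38, 0.12 and 0.19 after protons, which did not overlap and differed by 0.52 ± 0.20 (limma adjusted p = 0.229).

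RRP9, a protein of the U3 snoRNP, had the smallest p in J3D between the beams. It was at −0.33, 0.11 and −0.32 after X-rays and 0.34, 0.14 and 0.14 after protons, with −0.35, −0.13 and 0.04 in sham. The proton libraries lay above all the others, by 0.39 ± 0.16 over X-rays (limma adjusted p = 0.6) and 0.35 ± 0.16 over sham. WDR3, WDR43 and WDR75, WD-repeat proteins of the processome, were at 0.32, 0.35 and 0.19 between the beams in BL41 and 0.45, 0.27 and 0.33 in J3D.

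Factors of late small-subunit maturation and export had a median of 0.34 over sham after protons in BL41, the highest of the 7 roles there. Their J3D median was 0.30, where RNA polymerase I and its regulators were highest (0.43). TSR1, which occupies the site of translational GTPases on the immature subunit, was at −0.25, −0.22 and −0.03 in BL41 sham, −0.31, 0.05 and −0.25 after X-rays and 0.28, 0.13 and 0.12 after protons. The proton libraries lay above all 6 others, by 0.34 ± 0.14 over sham (limma adjusted p = 0.25) and 0.35 ± 0.14 over X-rays (0.769). Its J3D proton library 2 (−0.03) lay below X-ray library 2 (0.12). LTV1, an export and maturation factor, was at −0.28, −0.12 and −0.06 in BL41 sham and 0.30, 0.06 and 0.16 after protons, a difference of 0.33 ± 0.15. Its J3D difference from sham was 0.01 without number 1. PNO1, which binds the end of the small-subunit RNA, was at 0.39 ± 0.17 between the beams in BL41 and 0.37 ± 0.18 in J3D. For PNO1 number 1 stood out, with 0.81 against 0.04 and 0.32 in BL41 and 0.95 against −0.01 and 0.19 in J3D. RRP12, an export factor, was at 0.60 ± 0.24 over sham after protons in BL41, the highest of the 40 there, with sham values of −0.46, −0.59 and −0.08. BYSL, bystin, was at 0.18 ± 0.15 over sham in BL41 and 0.30 ± 0.21 in J3D, where it was −0.02 without number 1.

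The large-subunit group is led by the PeBoW complex of PES1, BOP1 and WDR12, which acts in processing of the large-subunit RNA. WDR12 had the smallest p of the 40 genes after protons in BL41. It was at −0.33, −0.31 and −0.07 in sham, −0.14, 0.04 and −0.17 after X-rays and 0.25, 0.23 and 0.13 after protons. The proton libraries lay above all others, by 0.44 ± 0.12 over sham (0.58, 0.54 and 0.20 in the 3 numbers), with a limma adjusted p of 0.163 with the block and 0.0361 without it. Without number 1 the J3D differences of WDR12 were 0.18 over sham and 0.04 between the beams. PES1 was at 0.24 ± 0.12 over sham after protons in BL41 and 0.01 ± 0.10 in J3D, where its libraries spanned only −0.14 to 0.09. BOP1 was at 0.21 ± 0.14 in BL41 and 0.53 ± 0.27 in J3D, the latter from 1.24, 0.20 and 0.14. Of the 3 partners, PES1 was nearest to sham in J3D, while BOP1 and PES1 in BL41 differed by less than their standard errors.

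Among other large-subunit factors, EBNA1BP2 was at 0.38 ± 0.16 between protons and X-rays in BL41 and 0.52 ± 0.23 in J3D, and RRS1, which brings in the 5S particle, at 0.29 ± 0.15 and 0.48 ± 0.21. NOP2, a ribosomal RNA methyltransferase, was at 0.28 ± 0.20 and 0.51 ± 0.28, and NOP16 at 0.36 ± 0.16 and 0.27 ± 0.14. NIP7, RRP1B, GNL3 (nucleostemin, a nucleolar GTPase) and PPAN, whose gene also gives read-through transcripts with its neighbour, lay between 0.19 and 0.27 in BL41 and between 0.14 and 0.27 in J3D. All 11 large-subunit genes were above 0 between the beams in both lines. Without number 1, EBNA1BP2 was at 0.19 and 0.22, and RRS1 at 0.17 in J3D.

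**Figure D4:**
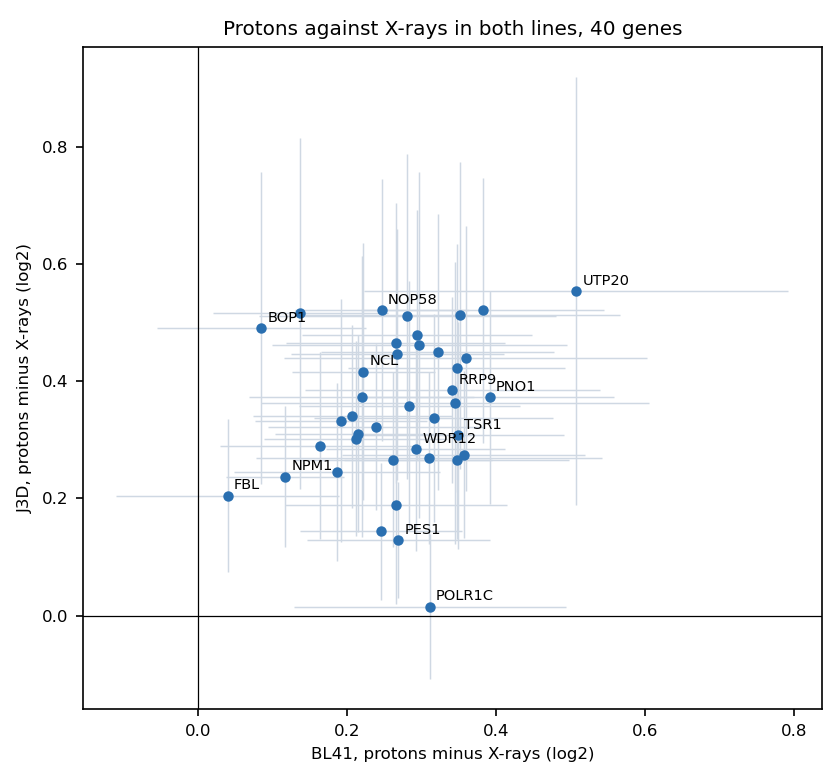
Fitted difference between protons and X-rays (log2) of the 40 genes in BL41 (horizontal axis) and J3D (vertical axis); bars are standard errors of the limma fit with the number as a block. UTP20 (0.51 and 0.55) is highest in both lines, FBL (0.04) lowest in BL41 and POLR1C (0.02) lowest in J3D.

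Other genes of the pathway, 129 rows in BL41 and 118 in J3D, had values like those of the 40. Between protons and X-rays 124 of 129 and 112 of 118 were above 0 (all rows: 8148 of 15069 and 7009 of 12264), with medians of 0.20 and 0.31. They were higher in all 3 numbers in 56.6% and 26.3%, near the shares of the 40 genes. limma called 0 of them in all 6 comparisons, and without the block NAT10 in BL41 after protons (0.38 ± 0.12, adjusted p = 0.0476 without the block and 0.175 with it), which acetylates the small-subunit RNA. The smallest p values between the beams belonged to RRP15 (0.48 ± 0.17), NOL9 (0.43 ± 0.16) and SDAD1 (0.27 ± 0.11) in BL41. In J3D they belonged to SURF6 (0.44 ± 0.16), MRTO4 (0.42 ± 0.17) and NOP14 (0.28 ± 0.12). After protons against sham they belonged to NAT10, IMP4 (−0.25 ± 0.09) and URB1 (0.50 ± 0.19) in BL41 and RSL1D1 (0.35 ± 0.14), BRIX1 (0.40 ± 0.16) and RIOK2 (0.44 ± 0.18) in J3D. After X-rays they belonged to IMP4 (−0.29 ± 0.09), EXOSC9 (−0.19 ± 0.09) and POLR1D (−0.18 ± 0.09) in BL41 and TSR3 (−0.22 ± 0.12), NOL12 (−0.19 ± 0.12) and EXOSC4 (−0.17 ± 0.12) in J3D. IMP4, a protein of the U3 particle, was thus below sham in all 3 numbers after both beams in BL41.

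MYC itself did not have the order of the 40 genes in BL41. Its difference from sham was −0.36 ± 0.14 after X-rays and −0.32 ± 0.14 after protons, and 0.04 ± 0.14 between the beams (limma adjusted p = 0.25, 0.255 and 0.945). In J3D these were 0.21 ± 0.20, 0.57 ± 0.20 and 0.36 ± 0.20, with protons higher than X-rays in all 3 numbers. CDKN1A, the p53 target that encodes p21, was at 0.84 ± 0.12 and 0.78 ± 0.12 over sham in BL41 (limma adjusted p = 0.0942 and 0.122 with the block, 0.00869 and 0.0129 without it) and at −0.06 ± 0.12 between the beams. In J3D CDKN1A was at 0.17 ± 0.21 after X-rays, −0.35 ± 0.21 after protons and −0.51 ± 0.21 between the beams (limma adjusted p = 0.6), with protons lower in all 3 numbers.

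The members also differed by transcript length, a relation looked at after their values had been seen. The longest coding transcript (GENCODE 29) was known for 39 of the 40 genes. In BL41 sham 2 the Spearman correlation of value and length across these genes was −0.79, and across 11236 coding rows it was −0.40. Genes share their library and are not replicates, so this is a description. POLR1A, UTP20 and HEATR1, among the longest, and MYBBP1A and RRP12 had their lowest BL41 values there, −0.73 to −0.57, and FBL, among the shortest, its highest, 0.27. WDR3 and WDR12, also among the longest, were at −0.35 and −0.31 in that library. The correlation was 0.03 in sham 1 and 0.32 in sham 3. Among the irradiated BL41 libraries it ran from −0.39 in X-ray 3 to 0.60 in proton 2 (−0.27 and 0.20 across the coding rows). Centring ties the libraries of a number, so the values of X-ray 2 and proton 2 are not independent of those of sham 2. In J3D, with human lengths, the correlation across the 39 genes ran from −0.47 in sham 2 to 0.57 in X-ray 2. Without BL41 sham 2 the median difference of the 40 genes from sham was 0.15 after protons and −0.12 after X-rays. The part of length in the results was not tested.

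**Figure D5:**
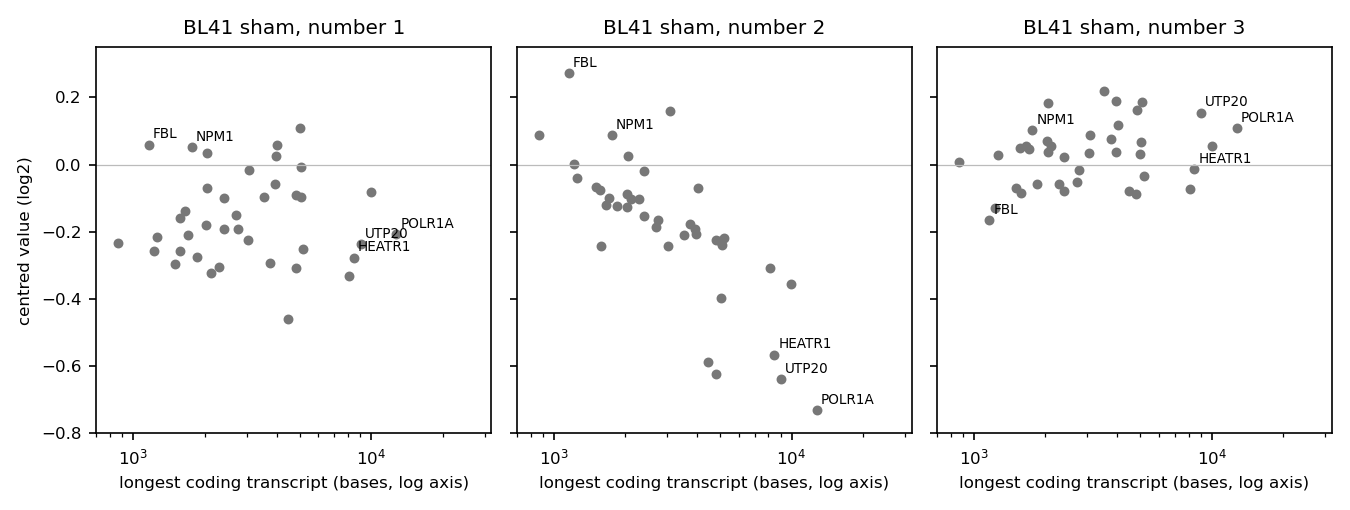
Centred value (log2, vertical axis) against length of the longest coding transcript (bases, log axis) for 39 genes in the BL41 sham libraries of numbers 1, 2 and 3. Values fall with length in number 2, where POLR1A is at −0.73 and FBL at 0.27; the Spearman correlation is −0.79 there against 0.03 and 0.32 in numbers 1 and 3.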

How the data were processed

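Total RNA of 18 libraries was sequenced. The submitters' processing notes name TopHat2 and the builds hg19 and mm10; a counting tool and a normalization were not given in the sources used here. For each line, the authors deposited centred logarithms, read as log2 because the base is not stated. Where the lowest pair of a gene's 3 values in a number was tied (within 1e-06; 85 to 229 rows), the missing library of the mean of 4 was implied to equal that value in 52.9 to 63.5% of cases and to lie below it in 0.

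Each line was fitted on its 9 libraries with limma 3.58.1 in R 4.3.3 (statmod 1.5.0; trend and robust moderation), with a mean per group and the number as a block. p-values were adjusted by Benjamini-Hochberg over the whole table, with a threshold of 0.05. The block was used because the centring removes a mean per number: residual degrees of freedom are 4 with it and 6 without it. Correlations of same-numbered deviations (−0.73 to 0.31) are biased by the centring and cannot show pairing. The fits were also run on simulated data with independent noise and the same spread in every library of a gene. The libraries of J3D number 1 had wider interquartile ranges than the others. That run therefore cannot show how the fits perform on these data. Counts, medians and plots used Python 3.11.15, pandas 2.3.3 and matplotlib 3.10.9. Alternatives were no block, trimmed means (10% at each end), quantile normalization, no trend and no robust moderation, only the groups compared, the filter on low values, and leaving out each library or number. The filter kept rows above the lowest value of the library in at least 3 libraries. Centred values do not give expression levels, and with 0 rows removed its fit equals the main fit.

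The 40 genes, their roles and the other lists were chosen with earlier results of these data known. Genes were named by rule: in each comparison the 6 with the smallest p and 15 fixed ones over all roles, 3 other pathway genes with the smallest p, and MYC and CDKN1A. Not every difference of these genes is printed, and those between X-rays and sham are mostly left out. Further genes were named to complete a role, after their values were seen. A marker of the erythroid and megakaryocyte list is not reported here.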

Additional observations from a re-analysis of the deposited data

How the results depend on the processing

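Direction and lack of a call held for the medians and counts of the 40 genes, with these exceptions. Without the replicate block limma called 806 genes in BL41 after X-rays (728 higher) and 1027 after protons (891 higher), where the fit with the block called 0 in each, and it called 1 of the 40 genes (WDR12, after protons); pairing by number changed no other call among the 40. Quantile normalization called 5 genes after protons and 1 between the beams in BL41, and the fit without trend and robust moderation 3 after protons. With 1 library or number left out, the genes called ranged from 0 to 1, 0 to 0 and 0 to 1 in BL41 (X-rays, protons, between the beams) and from 0 to 3, 0 to 22 and 0 to 34 in J3D, and 0 of the 40 genes were called throughout. The highest J3D counts, 22 and 34, came without number 2. The median of the 40 genes ranged over these from −0.19 to 0.04, 0.09 to 0.33 and 0.14 to 0.41 in BL41 and from −0.22 to 0.13, 0.09 to 0.50 and 0.09 to 0.56 in J3D. With trimmed means, which bring the median of all rows to about 0, it was −0.16 after X-rays and 0.09 after protons in BL41. Of 2034 values of named genes among the 40, 1927 kept their sign and their side of the threshold, 106 changed sign with no call on either side, and 1 gained a call (WDR12). Some alternatives cannot change a fitted difference or the median: no block, no trend and no robust moderation, only the groups compared, and the filter. Leaving out a library of the group not compared cannot either. Signs under these were fixed in advance, so the count of 1927 overstates how far signs held. Among the other genes named, NAT10 after protons and CDKN1A after both beams in BL41 gained a call without the block. The cause was not tested. Depth is unknown, and its part in what could be detected was not tested.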
